A study of Bos taurus with 37 samples.

Results

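The antioxidant enzymes described here are 10 genes: SOD1, SOD2, CAT, GPX1, GPX4, PRDX1, PRDX2, PRDX6, TXN and GSR. They were found by gene symbol, each symbol matching 1 row, so that they are 10 of the 22628 rows of the expression table. The choice of these genes was made with earlier results of these data known. All 10 had a mean above 0.1 FPKM (fragment numbers scaled by transcript length and by the mapped fragments of the library) in every comparison and were tested in each.

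Superoxide is turned into hydrogen peroxide by the superoxide dismutases, SOD1 in the cytosol and SOD2 in mitochondria. The peroxide is then removed by catalase in peroxisomes, by the glutathione peroxidases, which draw electrons from glutathione, and by the peroxiredoxins, most of which draw them from thioredoxin. Preimplantation embryos cultured in vitro are known to be sensitive to oxidative stress, and these enzymes are often measured in them for that reason.

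The study profiled single bovine blastocysts of 3 origins, in a male and a female set, each embryo being 1 library. SCNT-BLs (somatic cell nuclear transfer blastocysts, 6 male, 6 female) grew from activated oocytes whose own nucleus had been replaced by that of a cultured, passaged fibroblast from adult ear skin, and the donor fibroblasts of each set gave 1 library. Sham NT-BLs (6 male, 5 female) came from fertilized zygotes that kept both pronuclei but lost the polar body and some ooplasm through a torn zona pellucida, and were then exposed to ionomycin and 6-dimethyl-aminopurine. IVF-BLs (6 male, 6 female) came from in vitro fertilization without that surgery or those agents. Per the study's methods only embryos judged of high quality after Hoechst staining were profiled, the SCNT-BLs of each set came from donor fibroblasts of that sex, and male and female libraries were pooled and sequenced apart. Sex, flow cell and, for SCNT-BLs, donor cells can therefore not be told apart, and all group comparisons were made within a set. The SCNT-BLs and the sham NT-BLs of a set were compared with the same IVF-BLs.

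The Y-linked genes DDX3Y and UTY separated the 19 male from the 18 female libraries as labelled, with at least 2.83 FPKM in every male and at most 0.271 FPKM in every female library. XIST overlapped, since 2 male SCNT-BLs (up to 35.7 FPKM) exceeded the lowest female IVF-BL (18.0 FPKM). Summed FPKM ran from 414105 to 601000 per library. Read depth is not in the table, so each library's depth relative to male IVF-BL replicate 1 was estimated from the spacing of its low values. The estimate was not checked against read counts. On that scale male sham NT-BLs had a median of 0.635 (0.532 to 0.807) against 0.927 in male IVF-BLs (0.774 to 1), and female sham NT-BLs 0.674 (0.426 to 0.818) against 1.10 in female IVF-BLs (0.865 to 1.44). Male SCNT-BLs had a median of 0.873 (0.646 to 0.966) and female SCNT-BLs 0.940 (0.371 to 1.17). Female SCNT-BL replicates 5 and 6 stood apart, with relative depths of 0.371 and 0.511, 45.6% and 45.2% of rows listed at 0 against 34.0% to 37.3% in the 4 others, and mean correlations with their own group of 0.903 and 0.890. With both left out, a choice made after seeing the data, no call of a member in the female SCNT-BLs changed. Of 16 trophectoderm markers, 15 were listed, and they summed to 2105 to 10041 FPKM in blastocysts against 162 and 121 FPKM in the donor fibroblasts. The hemoglobin genes HBA, HBA1, HBE1 and HBE2 were listed at 0 in every blastocyst. The blood markers as a list were not silent. HBB and PTPRC were not at 0 throughout the male SCNT-BLs, and the 9 rows of the list summed to 4.27 to 48.9 FPKM in blastocysts. In a whole embryo, fewer cells expressing a gene and less of its RNA per cell cannot be told apart.

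The members spanned a wide range on the FPKM scale, which corrects for transcript length. PRDX1, a cytosolic peroxiredoxin, had the highest median of the 10 in every blastocyst group except male sham NT-BLs, at 1387 FPKM in male SCNT-BLs, 1890 in male IVF-BLs, 1427 in female SCNT-BLs, 1103 in female sham NT-BLs and 1689 in female IVF-BLs. In male sham NT-BLs its median was 359 FPKM and that of SOD1 was 455. SOD1, PRDX2 and PRDX6 mostly came next, and SOD1 was second in the 5 other blastocyst groups. CAT, GPX1 and GSR had medians of 19.6 to 141 FPKM in blastocysts, GPX4 of 1.38 to 26.7 and TXN of 3.08 to 19.6. SOD2 was the lowest in every blastocyst group, with 4 of 6 male SCNT-BLs, 6 of 6 male sham NT-BLs and 2 of 6 male IVF-BLs listed at 0, and 2 of 6 female SCNT-BLs, 3 of 5 female sham NT-BLs and 3 of 6 female IVF-BLs. Such values are read only as listed at 0. Among the housekeeping rows looked at, zeros stood only in low ones: TUBB (6 of 35 blastocysts, median 0.275 FPKM) and 1 row of PPIA (21 of 35, median 0).

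**Figure D1:**
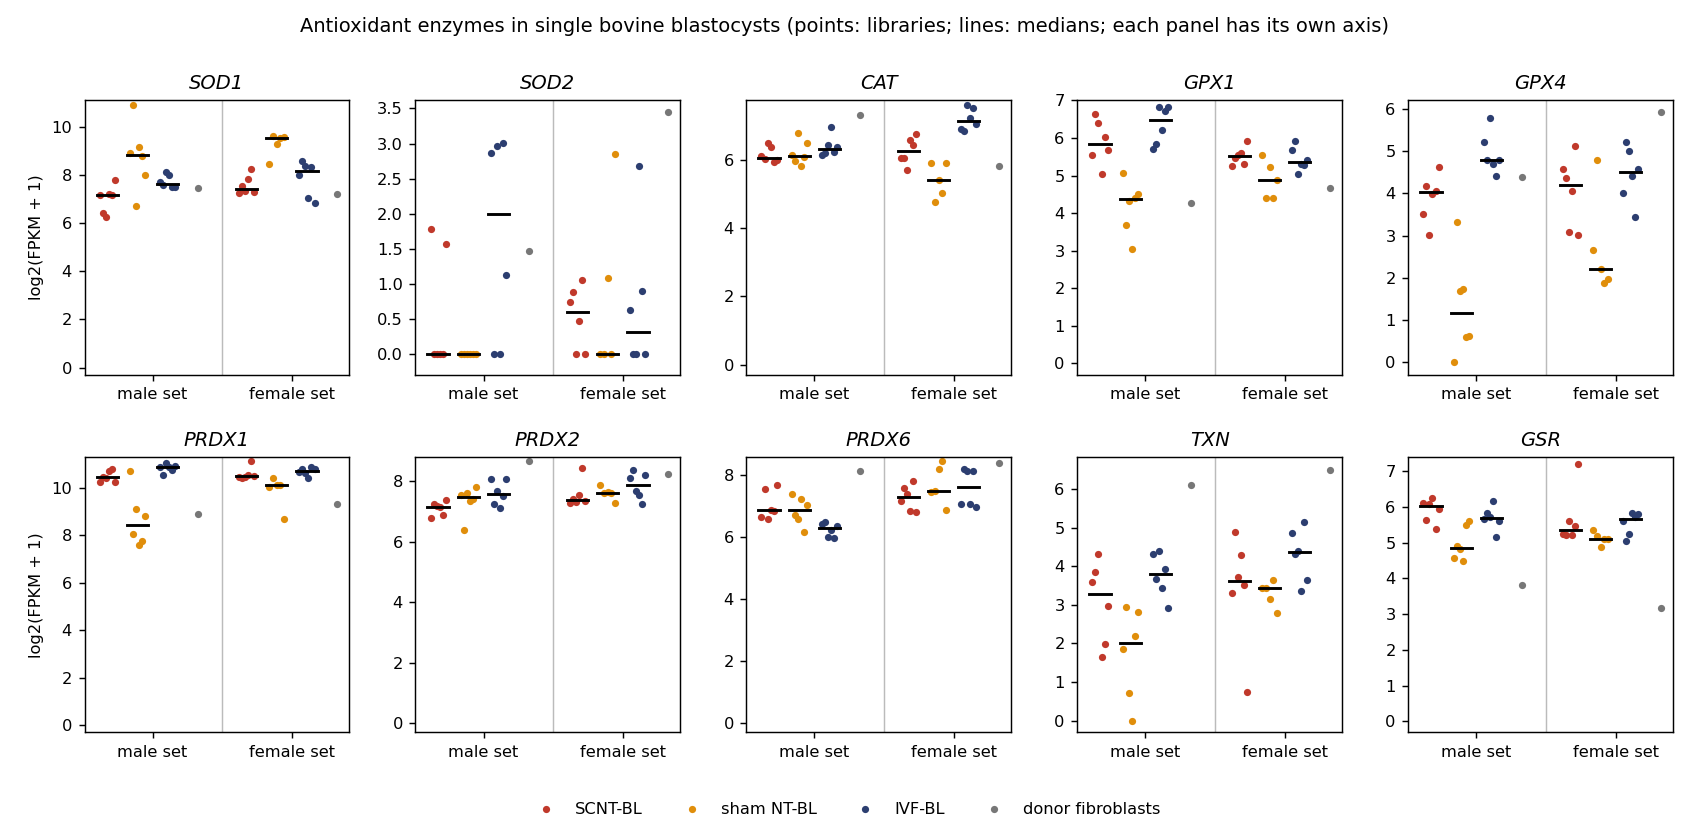
Each point is 1 library and each line a group median, on log2(FPKM + 1) with a separate axis per gene; within a set SCNT-BLs, sham NT-BLs, IVF-BLs and the donor fibroblasts run from left to right. GPX4 sits lowest in the sham NT-BLs of both sets (median 1.38 FPKM against 26.7 in male IVF-BLs, 3.64 against 21.6 in female IVF-BLs), while CAT is low in the sham NT-BLs of the female set alone (42.1 against 141 FPKM).

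In male sham NT-BLs against male IVF-BLs, 5 of the 10 members passed as lower (GPX4, GPX1, PRDX1, TXN and SOD2) and none as higher in limma, where 6.13% of all 14902 rows were higher, 5.96% lower and 12.1% changed. SOD2, often listed at 0, lost its call without any 1 of 10 of the 12 embryos. SOD1 and PRDX6 were higher there at an unadjusted p under 0.05, which 25.4% of rows passed in either direction. In female sham NT-BLs against female IVF-BLs, SOD1 rose and CAT and GPX4 fell, where 7.03% of 15259 rows rose, 6.47% fell and 13.5% changed. The median log2 difference over the members was -1.18 in the male and -0.49 in the female set, beside -0.02 and -0.09 over all rows tested. In male SCNT-BLs against male IVF-BLs, PRDX6 rose and GPX4 fell, where 6.98% of 14906 rows changed, 3.34% higher and 3.64% lower. The lineage markers GATA3 and GATA6 were higher and GATA2, TEAD4 and KLF4 lower in the same comparison, and their part in the result was not tested. The median over the members was -0.49, beside -0.01 over all rows. In female SCNT-BLs against female IVF-BLs no member passed the threshold in limma, where 0.321% of 15256 rows did. One member, CAT, had an unadjusted p under 0.05 there, as did 1664 rows (10.9%), and with array weights or with all 6 groups in a common fit CAT alone passed. SCNT-BLs set directly against sham NT-BLs differed in 5 members in the male set (GPX4, GPX1, PRDX1 and GSR higher, SOD1 lower), where 11.8% of rows changed, 5.67% higher and 6.13% lower. Only SOD1 passed in the female set, being lower, where 11.3% of rows changed and 6.07% were lower. Unless said otherwise, changes passed an adjusted p of 0.05 in limma on log2(FPKM + 1), which understates differences of low genes.

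When FPKM were rescaled to the same sum in every library, the median difference over all rows in female sham NT-BLs moved to -0.24. The rows called then split into 739 higher and 1627 lower, against 1073 and 988 without rescaling, and PRDX1 and TXN joined CAT and GPX4 among the members that fell. SCNT-BLs against sham NT-BLs of the female set split into 1145 higher and 679 lower after that rescaling, against 788 and 918, with the median over all rows at 0.16. In the male set the split of sham NT-BLs against IVF-BLs moved to 739 higher and 1003 lower, against 913 and 888, and that of SCNT-BLs against sham NT-BLs to 934 and 765, against 838 and 906, while GSR passed as lower in male sham NT-BLs (adjusted p = 0.0420). None of the members called changed direction under it.

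**Figure D2:**
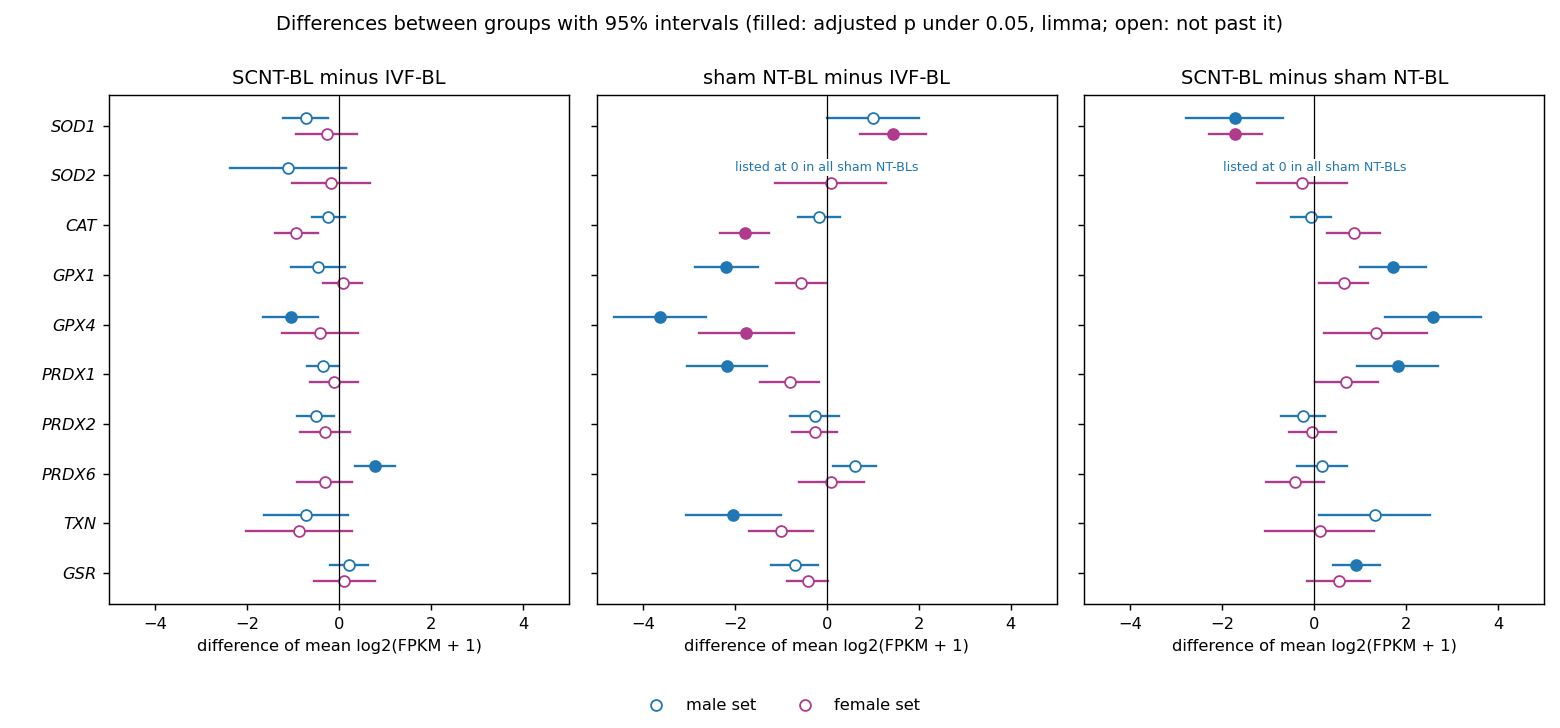
Difference of mean log2(FPKM + 1) for each member (points) with its 95% interval (lines) in the male and female sets; filled points passed an adjusted p of 0.05 in limma, and SOD2 is left out where all male sham NT-BLs are listed at 0. In the middle panel GPX4 lies at -3.63 in the male and -1.75 in the female set, and CAT at -0.17 and -1.79.

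SOD1, the copper and zinc superoxide dismutase, was the only member that passed as higher in sham NT-BLs with all embryos, and it did so in the female set alone. It had 351, 777, 623, 748 and 770 FPKM in the 5 female sham NT-BLs, against 114, 288 and 375 FPKM (lowest, median, highest) in female IVF-BLs. All but female sham NT-BL replicate 1 exceeded every IVF-BL. The difference was 1.45 on the log2 scale (SE 0.34, adjusted p = 0.0103), and it held without any 1 embryo and under each alternative. In male sham NT-BLs SOD1 ran from 104 through a median of 455 to 1887 FPKM, against 181, 197 and 280 FPKM in male IVF-BLs. Here 4 of 6 sham NT-BLs lay above every IVF-BL and replicate 3 lay below all of them. The difference of 1.01 (SE 0.47) did not pass (adjusted p = 0.195), but did without male sham NT-BL replicate 3 (1.41, adjusted p = 0.0229).

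SCNT-BLs did not share the high SOD1 of sham NT-BLs. In the female set they had 153, 171 and 302 FPKM (lowest, median, highest), all below the 5 sham NT-BLs, as was the case in 4.41% of rows for that comparison, and the difference was -1.72 (SE 0.27, adjusted p = 0.00118). In the male set they had 75.5, 144 and 218 FPKM, with a difference from sham NT-BLs of -1.74 (SE 0.50, adjusted p = 0.0327). That call was lost without any 1 of male SCNT-BL replicates 1 to 5 or male sham NT-BL replicates 1, 4 and 5 (adjusted p up to 0.0757), and it was lost without the filter on low rows (0.0749). Against IVF-BLs, SOD1 differed by -0.73 (adjusted p = 0.0700) in male SCNT-BLs, which passed without male SCNT-BL replicate 6 (-0.89, adjusted p = 0.0246), and by -0.27 (95% interval -0.93 to 0.38) in female SCNT-BLs.

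SOD2, the manganese enzyme of mitochondria, was listed at 0 in all 6 male sham NT-BLs, against 6.29, 0, 6.80, 0, 7.03 and 1.18 FPKM in male IVF-BLs. limma called it lower in the sham NT-BLs (adjusted p = 0.0455), with no fold given against a group listed at 0. The call was lost without any 1 of the 6 sham NT-BLs or of male IVF-BL replicates 1, 3, 5 and 6 (adjusted p up to 0.0943) and without the filter on low rows (0.0885). Male SCNT-BLs were listed at 2.43 and 1.95 FPKM in replicates 1 and 6 and at 0 in the others. In the female set, SCNT-BLs were listed at 0.666, 0.837, 0, 0.384, 1.07 and 0 FPKM, sham NT-BLs at 0, 0, 1.12, 0 and 6.24, and IVF-BLs at 0.545, 0, 0, 5.43, 0.862 and 0, and neither comparison with IVF-BLs passed. Most of these values are at or near 0.

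CAT, the peroxisomal enzyme that splits hydrogen peroxide, was low in female sham NT-BLs. They had 59.9, 26.4, 42.1, 31.8 and 59.9 FPKM, against 116, 141 and 197 FPKM (lowest, median, highest) in female IVF-BLs. The groups did not overlap, as in 3.96% of rows with lower values, and the difference was -1.79 (SE 0.25, adjusted p = 3.1e-04). It held without any 1 embryo and under each alternative. Female SCNT-BLs had 51.7, 76.1 and 109 FPKM and also lay entirely below the IVF-BLs, which 0.531% of rows did. Their difference of -0.93 (SE 0.22, 95% interval -1.40 to -0.46) had an adjusted p of 0.0949 (-1.10 and 0.0512 without replicates 5 and 6) and passed with array weights (0.0182) and with all 6 groups in a common fit (0.0197), with a range of 0.0182 to 0.190 over the alternatives. Between SCNT-BLs and sham NT-BLs of the female set the difference was 0.85 (adjusted p = 0.0538), which passed without female SCNT-BL replicate 3 (0.0438), female sham NT-BL replicate 1 (0.0378) or replicate 5 (0.0380).

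In the male set no difference in CAT passed, though 4 of 6 SCNT-BLs and 3 of 6 sham NT-BLs lay below every IVF-BL. CAT had 60.0, 66.3 and 88.8 FPKM in male SCNT-BLs, 55.7, 68.7 and 111 in male sham NT-BLs, and 70.1, 78.5 and 123 in male IVF-BLs. The sham NT-BLs differed from IVF-BLs by -0.17 (95% interval -0.62 to 0.28) and the SCNT-BLs by -0.24 (95% interval -0.60 to 0.12). The female sham difference minus the male sham difference was itself -1.62 (SE 0.32, adjusted p = 0.00795), where 1.22% of 15375 rows passed, and it held without any 1 embryo and under each alternative. The IVF-BLs of the sets also stood at different CAT levels, which the single flow cell per set leaves tied to sex and sequencing alike.

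GPX4, the selenoenzyme that reduces lipid hydroperoxides in membranes, was the only member that passed as lower in sham NT-BLs of both sets without rescaling. After rescaling to a common sum PRDX1 and TXN did so too (adjusted p = 0.0322 and 0.0196 in the female set). Male sham NT-BLs had 0, 9.05, 2.24, 2.31, 0.514 and 0.526 FPKM of GPX4, against 20.3, 26.7 and 54.1 FPKM (lowest, median, highest) in male IVF-BLs. The sham median was 0.0518 times that of IVF-BLs. No sham NT-BL reached any IVF-BL, as in 3.27% of rows with lower values. The difference was -3.63 (SE 0.47, adjusted p = 1.5e-04), and it held without any 1 embryo and under each alternative. Female sham NT-BLs had 5.32, 26.7, 3.64, 2.64 and 2.93 FPKM, against 9.87, 21.6 and 36.4 FPKM in female IVF-BLs. Replicate 2 lay inside the range of the IVF-BLs and the 4 other embryos lay below it. The difference was -1.75 (SE 0.49, adjusted p = 0.0260). That call was lost without any 1 of female sham NT-BL replicates 3, 4 or 5, or of female IVF-BL replicate 2 or 3 (adjusted p up to 0.0716) and without the filter on low rows (0.0554).

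SCNT-BLs stood between sham NT-BLs and IVF-BLs in GPX4. Male SCNT-BLs had 7.09, 15.3 and 23.6 FPKM, which was higher than in male sham NT-BLs by 2.57 (SE 0.49, adjusted p = 0.00282) and lower than in male IVF-BLs by a difference of -1.06 (SE 0.28, adjusted p = 0.0340). The difference from sham NT-BLs held without any 1 embryo. That from IVF-BLs was lost without any 1 of male SCNT-BL replicates 1, 3, 4 and 5 or male IVF-BL replicates 1, 2, 3 and 6 (adjusted p up to 0.0766), without the filter on low rows (0.0553) and with all 6 groups in a common fit (0.195). Female SCNT-BLs had 7.04, 17.6 and 34.2 FPKM, with differences of -0.41 (95% interval -1.23 to 0.41) from IVF-BLs and 1.34 (adjusted p = 0.121) from sham NT-BLs. The second passed without female sham NT-BL replicate 2 (1.86, adjusted p = 0.0165).

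GPX1, the abundant cytosolic glutathione peroxidase, fell in male sham NT-BLs. They had 7.22, 19.6 and 32.6 FPKM, against 50.8, 89.0 and 112 FPKM in male IVF-BLs, and these groups did not overlap either. The difference was -2.18 (SE 0.32, adjusted p = 4.0e-04). Male SCNT-BLs, with 32.2, 57.0 and 98.0 FPKM, were 1.71 higher than the sham NT-BLs (SE 0.34, adjusted p = 0.00329) and differed from IVF-BLs by -0.47 (95% interval -1.06 to 0.12). Both calls held without any 1 embryo and under each alternative. Female embryos had GPX1 at 37.2, 44.7 and 59.4 FPKM in SCNT-BLs, 45.3, 20.1, 36.2, 20.0 and 28.3 in sham NT-BLs, and 32.2, 40.2 and 59.3 in IVF-BLs. The sham difference there was -0.56 (95% interval -1.10 to -0.02, adjusted p = 0.167).

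PRDX1, a peroxiredoxin that works with thioredoxin, fell in male sham NT-BLs. These embryos had 1654, 264, 544, 190, 215 and 454 FPKM in replicate order, against 1507, 1890 and 2093 FPKM (lowest, median, highest) in male IVF-BLs. All but replicate 1 lay far below the lowest IVF-BL. The difference was -2.17 (SE 0.41, adjusted p = 0.00249) and held without any 1 embryo. Male SCNT-BLs had 1199, 1387 and 1791 FPKM, which was 1.81 higher than in sham NT-BLs (SE 0.42, adjusted p = 0.00873), also without any 1 embryo, and differed from IVF-BLs by -0.36 (adjusted p = 0.223). In female sham NT-BLs PRDX1 had 1063, 1373, 1121, 1103 and 414 FPKM, against 1366, 1689 and 1884 FPKM in female IVF-BLs. Here 4 of 5 embryos lay below every IVF-BL, and the difference of -0.81 (SE 0.30) did not pass (adjusted p = 0.0878). Female SCNT-BLs had 1366, 1427 and 2215 FPKM.

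PRDX2, the close relative of PRDX1 that is abundant in red cells, passed in no comparison. Its group medians ran from 142 to 238 FPKM over the 6 groups. It had 110, 142 and 165 FPKM in male SCNT-BLs, 83.1, 178 and 224 in male sham NT-BLs, and 139, 193 and 272 in male IVF-BLs. The SCNT difference was -0.51 (95% interval -0.91 to -0.12, adjusted p = 0.118) and the sham difference -0.27 (95% interval -0.80 to 0.27). Medians of the female set were 165 FPKM for SCNT-BLs, 194 for sham NT-BLs and 238 for IVF-BLs, with overlapping ranges.

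PRDX6, which also acts on phospholipid peroxides and uses glutathione in place of thioredoxin, was the member that rose in male SCNT-BLs. They had 94.2, 114 and 201 FPKM, against 60.9, 76.8 and 88.6 FPKM in male IVF-BLs. Every SCNT-BL exceeded every IVF-BL, as in 1.93% of rows with higher values, and the difference was 0.78 (SE 0.20, adjusted p = 0.0298). The call was lost without male SCNT-BL replicate 2 or 6 or male IVF-BL replicate 3 or 5 (adjusted p up to 0.0618) and with all 6 groups in a common fit (0.0813). Male sham NT-BLs had 69.6, 116 and 167 FPKM, 5 of 6 above every IVF-BL, with a difference of 0.61 (SE 0.22, adjusted p = 0.0850) that passed without sham NT-BL replicate 5 (0.75, adjusted p = 0.0287). PRDX6 in female SCNT-BLs had 111, 154 and 221 FPKM, beside 174, 177, 288, 346 and 116 in sham NT-BLs, and 122, 205 and 289 in IVF-BLs, and neither difference from IVF-BLs passed. PRDX6 overlaps AADACL3 and SLC9C2 in the ARS-UCD2.0 annotation, and whether reads of these genes were counted for it was not tested.

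TXN, the small dithiol protein that reduces peroxiredoxins, fell in male sham NT-BLs. They had 2.60, 6.64, 0.649, 0, 3.57 and 6.09 FPKM, against 6.62, 12.9 and 20.3 FPKM in male IVF-BLs, and 5 of 6 lay below the lowest IVF-BL. The difference was -2.03 (SE 0.49, adjusted p = 0.0115) and held without any 1 embryo and under each alternative. Male SCNT-BLs spread from 2.15 to 19.0 FPKM (median 8.98) and passed against neither group. Female sham NT-BLs had 9.75, 9.77, 7.93, 11.6 and 5.94 FPKM, against 9.19, 19.6 and 34.3 FPKM in female IVF-BLs. Their difference of -0.99 (SE 0.33) had an adjusted p of 0.0579, and it passed without female IVF-BL replicate 4 (0.0237) or replicate 6 (0.0400). Female SCNT-BLs had 0.679, 11.2 and 28.5 FPKM, the lowest being replicate 6. TXN overlaps LOC132346006 in ARS-UCD2.0.

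GSR, the reductase that restores glutathione with NADPH, was lowest in sham NT-BLs of both sets by its median. Male SCNT-BLs had 40.5, 64.1 and 74.7 FPKM, male sham NT-BLs 21.7, 28.1 and 48.1, and male IVF-BLs 34.6, 50.6 and 70.6. The SCNT-BLs exceeded the sham NT-BLs by 0.91 (SE 0.24, adjusted p = 0.0212), a call lost without male SCNT-BL replicate 4 or male sham NT-BL replicate 4 (adjusted p up to 0.0519). The sham difference from IVF-BLs was -0.70 (SE 0.24, adjusted p = 0.0743) and passed without male sham NT-BL replicate 6 (-0.82, adjusted p = 0.0390). Female SCNT-BLs had 36.1, 40.0 and 145 FPKM of GSR, while it stood at 39.7, 35.5, 28.5, 33.2 and 33.7 in sham NT-BLs, and 32.2, 49.8 and 56.2 in IVF-BLs. The 145 FPKM belonged to female SCNT-BL replicate 6 and the next highest SCNT-BL had 47.9.

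Embryo by embryo, the low members of male sham NT-BLs were not the same in each. Every male sham NT-BL had 4 to 6 of the 10 members below all male IVF-BLs, where 16.8% to 20.2% of all rows tested lay below them in an embryo, and GPX1 and GPX4 were among them in all 6 embryos. TXN was among them in 5 (all but replicate 2), PRDX1 in 5 (all but replicate 1) and GSR in replicates 1 to 4. Male sham NT-BL replicate 1 held the most PRDX1 of its group, at 1654 FPKM, while its GPX4 was listed at 0. Replicate 2 had the most SOD1 and GPX4 of its group and the least PRDX2. Female sham NT-BLs had 2 to 6 members below all female IVF-BLs (17.6% to 21.0% of rows), with CAT in all 5 and GPX4 and PRDX1 in 4 each. Male SCNT-BLs had 3 to 6 (12.8% to 15.9% of rows) and female SCNT-BLs 1 to 4 (10.9% to 21.3% of rows), the 4 being in replicate 6.

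**Figure D3:**
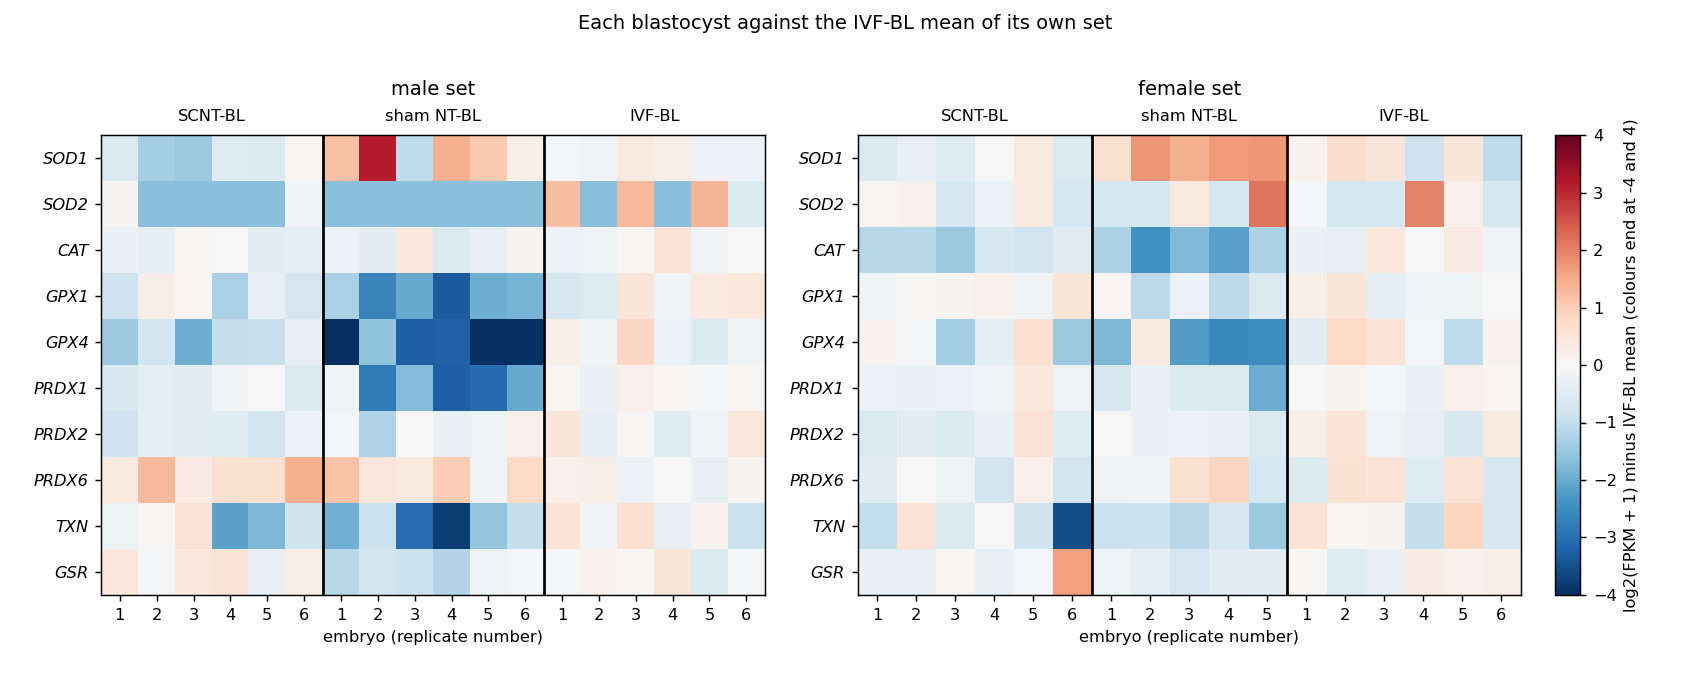
Colour gives log2(FPKM + 1) of each member (rows) in each blastocyst (columns, by replicate number) minus the mean of the IVF-BLs of the same set, red for above and blue for below, with colours ending at -4 and 4. In the male set the blue of GPX1 and GPX4 runs through all 6 sham NT-BLs, while PRDX1 stays near the IVF-BLs in replicate 1 (1654 FPKM); in the female set CAT is blue in the SCNT-BLs and the sham NT-BLs.

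Whether the effects differed between the sets was tested for every row. For sham NT-BLs CAT was the only member past the threshold, as given above. GPX1 came next, at 1.62 (SE 0.42, adjusted p = 0.0577), meaning a smaller fall in the female set, and it passed without male sham NT-BL replicate 1 (0.0191) or male IVF-BL replicate 1 (0.0405). PRDX1, at 1.36 (adjusted p = 0.265), passed without male sham NT-BL replicate 1 (1.77, adjusted p = 0.0189). GPX4, at 1.88 (adjusted p = 0.244), did not pass. Over all rows, 128 of these differences were higher and 59 lower in the female set, or 111 and 86 after rescaling to a common sum. For SCNT-BLs no member passed in limma, where 1.91% of 15425 rows did. PRDX6 (-1.10, adjusted p = 0.111) and CAT (-0.69, adjusted p = 0.203) had unadjusted p-values under 0.05, as did 15.2% of rows, and no member passed under any of the alternatives.

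Other measures moved with the sham NT-BLs too. The 10 markers of the inner cell mass and epiblast summed to 1578 to 5606 FPKM in male sham NT-BLs against 767 to 1920 in male IVF-BLs, and to 2052 to 3239 FPKM in female sham NT-BLs against 811 to 1358 in female IVF-BLs. DPPA3 made up most of these sums. In both sets DPPA3 rose and POU5F1 and KLF4 fell, and the median log2 difference over the 9 markers tested was -0.58 in the male and -0.13 in the female set. POU5F1, a core factor of pluripotent cells, had a median of 16.6 FPKM in male sham NT-BLs against 49.2 in male IVF-BLs and 17.2 against 72.5 FPKM in the female set. Of the 15 trophectoderm markers listed, TFAP2C fell in the male set and TEAD4, IFNT and IFNT2 in the female set, with medians over the list of -0.41 and -0.60. Of the primitive endoderm markers GATA4 fell in the male set and RUNX1 and GATA6 in the female set. The part of these markers and of the lower relative depth of sham NT-BLs in the differences above was not tested.

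The donor fibroblasts, 1 library per set and so without a replicate error, ranked the members differently. PRDX1 was highest there too, at 479.5 FPKM in the male and 637 in the female donor cells, below every SCNT-BL. GPX1 (18.1 and 24.3 FPKM) and GSR (13.2 and 7.95 FPKM) were also below every SCNT-BL of their set. TXN stood well above them, at 67.5 FPKM in the male donor cells against at most 19.0 in male SCNT-BLs and 89.8 in the female donor cells against at most 28.5 in female SCNT-BLs. PRDX6, at 279 and 328 FPKM, was above every SCNT-BL as well. The sets parted for 5 members: CAT (159 FPKM) and PRDX2 (410.1 FPKM) were above the SCNT-BLs only in the male donor cells, and SOD2 (9.93 FPKM) and GPX4 (59.8 FPKM) were above them and SOD1 (148 FPKM) below them only in the female donor cells. Collagen and other fibroblast markers summed to 17714 and 9908 FPKM in the donor cells against 1339 to 7212 in blastocysts.

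The wider antioxidant system was followed through 139 further symbols in 6 lists, with 137 rows. In male sham NT-BLs 6 of 116 rows tested rose and 8 fell, and in female sham NT-BLs 9 of 122 rose and 9 fell, shares close to those of all rows. The median over the lists was -0.04 in the male and -0.22 in the female set. The sets shared 4 rises (SEPX1, NFE2L1, CUL3 and SEPHS1) and 3 falls (FTH1, HMOX2 and TALDO1). How many of all rows were called in both sets was not counted, so these shared calls cannot be read against such a share. Without female sham NT-BL replicate 2, 3 or 4 the female calls of SEPX1 and CUL3 were both lost, leaving 2 shared rises, while the 3 shared falls held without any 1 embryo. Of the calls, 10 of 14 in the male and 10 of 18 in the female set held without any 1 embryo, and the genes given next are among those.

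FTH1, HMOX2 and TALDO1 fell in both sets. FTH1, the ferritin heavy chain that stores iron, had a median of 273 FPKM (231 to 578) in male sham NT-BLs against 1094 (942 to 1522) in male IVF-BLs, a difference of -1.91 (SE 0.23, adjusted p = 9.5e-05). In the female set it had a median of 273 FPKM (202 to 459) against 1020 (577 to 1604) in IVF-BLs, a difference of -1.88 (SE 0.30, adjusted p = 6.9e-04). No sham NT-BL reached any IVF-BL of its set, as in 3.27% of all rows in the male and 3.96% in the female set. SCNT-BLs exceeded sham NT-BLs in FTH1 by 1.57 in the male and 1.79 in the female set. HMOX2, the constitutive heme oxygenase, differed by -2.15 and -1.80 from IVF-BLs in male and female sham NT-BLs, and TALDO1, of the pentose phosphate pathway that supplies NADPH, by -1.66 and -1.59. Copies of FTH1, PRDX1 or TXN elsewhere in the genome could share their reads, which was not tested.

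Among transcriptional regulators, NFE2L2, which encodes NRF2, the activator of many antioxidant genes, fell in male sham NT-BLs by 1.37 on the log2 scale (SE 0.23, adjusted p = 0.00117). In the female set NFE2L2 had a median of 94.5 FPKM (69.4 to 195) in sham NT-BLs against 187 (97.9 to 368) in IVF-BLs. Neither that difference nor the difference between the sets passed. NFE2L1, its relative, rose in sham NT-BLs of both sets, with a median of 98.6 FPKM against 47.0 in male IVF-BLs and 77.9 against 27.1 FPKM in female IVF-BLs (differences 1.03 and 1.41). SEPHS1, related to the enzyme that makes selenophosphate, rose by 1.20 and 1.27 and was the only row called in either set of the 8 for selenoprotein synthesis. TXNIP, which binds thioredoxin, and PGLS fell in the male set (-1.48 and -1.77). TXNIP is a low gene, with a median of 0.238 FPKM in male sham NT-BLs against 2.58 in male IVF-BLs, and PGLS had 3.28 against 16.7.

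Other genes of the lists passed in the female sham NT-BLs and not in the male ones. GCLC, the catalytic subunit of the rate-limiting enzyme of glutathione synthesis, had a median of 28.1 FPKM (25.0 to 39.3) against 109 (74.3 to 136) in female IVF-BLs, a difference of -1.79 (SE 0.21, adjusted p = 9.2e-05). SLC3A2, the heavy chain of the cystine transporter, had 581 FPKM (259 to 718) against 131 (88.0 to 195), a difference of 1.89 (SE 0.27, adjusted p = 3.9e-04), and its difference between the sets passed as well (2.04, SE 0.38, adjusted p = 0.00449). PRDX3, the mitochondrial peroxiredoxin, rose by 1.64 (SE 0.28, adjusted p = 0.00118) and PGD by 1.01, while TXNRD1, which reduces thioredoxin, differed by -1.12. The difference between the sets passed for GCLC (-1.26, adjusted p = 0.0379), though it was lost without any 1 of 16 of the 23 embryos, and did not pass for PRDX3, PGD or TXNRD1.

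In male SCNT-BLs against male IVF-BLs, 0 of 115 listed rows rose in limma and 7 fell, where 3.34% of all rows rose and 3.64% fell. At an unadjusted p under 0.05, which 20.7% of all rows passed in either direction, 10 listed rows rose and 18 fell. GSTP1, a glutathione transferase, had a median of 83.3 FPKM (59.0 to 113) against 185 (136 to 232), a difference of -1.12 (SE 0.19, adjusted p = 0.00294). PRDX5 (-1.19), KEAP1 (-1.32), which holds NRF2 back, TKT (-0.78) and TALDO1 (-1.35) fell as well. So did OSGIN1 (-1.81), a target of NRF2, at a low median of 0.808 FPKM against 5.67 in male IVF-BLs. With GSTP1 these 6 held without any 1 embryo, while TALDO1 was lost with all 6 groups in a common fit (adjusted p = 0.0561). The other was NFE2L2 (-0.73, adjusted p = 0.0324), lost without any 1 of male SCNT-BL replicates 1, 5 and 6 or male IVF-BL replicates 2 to 5 (up to 0.0743) and with all groups in a common fit (0.161). The difference between the sets passed for KEAP1 (1.44, adjusted p = 0.0425) and GSTP1 (1.35, adjusted p = 0.0445), but KEAP1 held in 7 and GSTP1 in 6 of the 24 fits without 1 embryo, and both were lost in a common fit and with array weights (adjusted p up to 0.102 over the alternatives). In female SCNT-BLs 0 of 120 listed rows rose in limma and 1 fell, beside 2 and 10 at an unadjusted p under 0.05. Of all rows in that comparison, 0.321% passed in limma and 10.9% had an unadjusted p under 0.05, in either direction. The listed row that fell was TXNRD1 (-1.20, adjusted p = 0.0383). Its call was lost without any 1 embryo other than female SCNT-BL replicate 6 and female IVF-BL replicate 6 (up to 0.114).

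**Figure D4:**
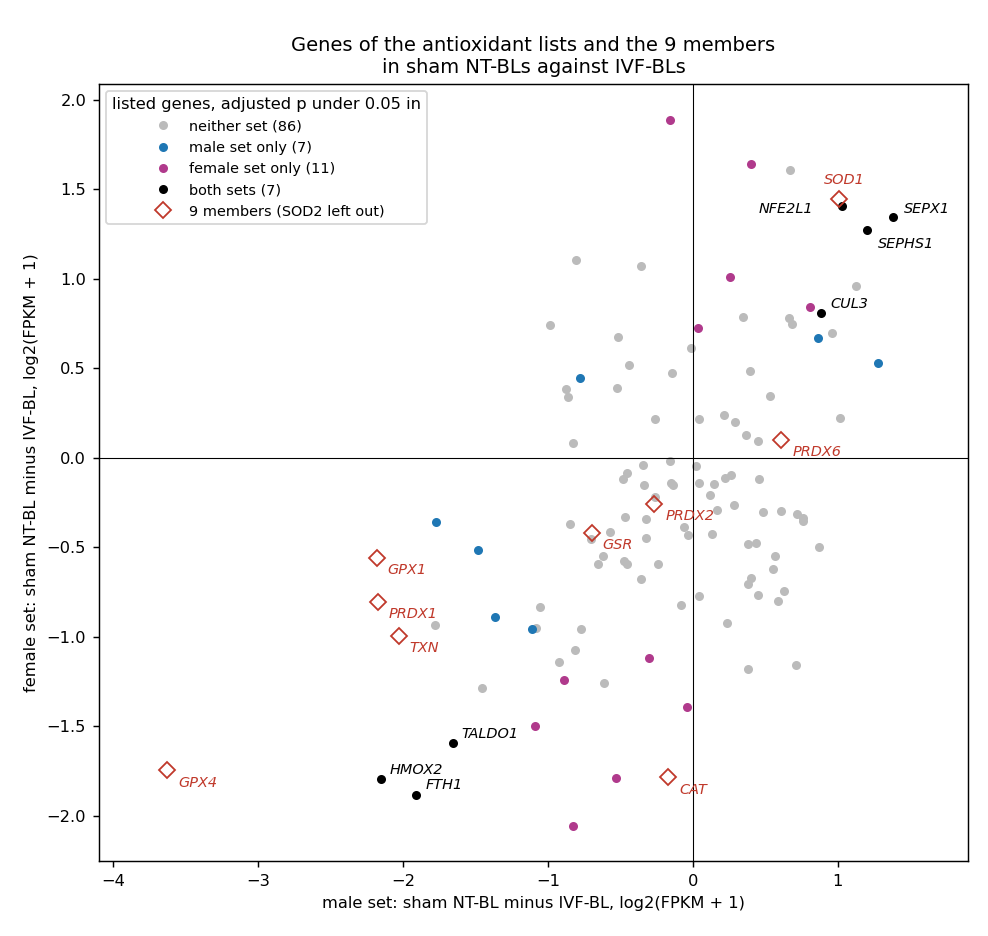
Difference of mean log2(FPKM + 1) between sham NT-BLs and IVF-BLs in the male set (horizontal) and the female set (vertical) for 111 listed symbols tested in both (circles, coloured by where they passed; a repeated symbol by its first row) and 9 members (red diamonds; SOD2 left out). FTH1, HMOX2 and TALDO1 lie with GPX4 in the lower left, while CAT lies low on the vertical axis alone (-1.79 against -0.17).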

How the data were processed

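Poly-A RNA of single bovine blastocysts and donor fibroblasts was amplified by pico-profiling and sequenced. The authors aligned reads to UMD3.1 with TopHat and estimated FPKM of known transcripts with Cufflinks, and per the labels Trim Galore and Cuffdiff were used too. The deposited table gives FPKM for 22628 rows in 37 libraries. FPKM are divided by transcript length and mapped fragments, so counts and counting errors could not be had. The 803 rows with a repeated symbol were kept apart.

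Differences were tested with limma 3.58.1 in R 4.3.3 (lmFit, eBayes with trend) on log2(FPKM + 1), over all rows with a mean above 0.1 FPKM in the embryos compared, with Benjamini-Hochberg adjustment over those rows and a threshold of 0.05. Each fit held the 2 groups compared, or 4 for the difference between sets. All adjusted p-values are from limma. Each embryo was 1 replicate. The SCNT-BLs of a set share the source of their donor nuclei, and nothing says whether other embryos shared parents or a day, so p-values measure the spread between these embryos. The script was tested on simulated data for male sham NT-BLs against male IVF-BLs only. Changes were put into rows with a mean above 2 on the log2 scale, so low rows such as SOD2 were not covered. Median ratios and ranges are of FPKM.

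Alternatives were a pseudocount of 0.1, rows above 1 FPKM or all rows, rescaling to a common sum or by median ratios, all 6 blastocyst groups in a common fit, a replicate block, array weights, leaving out each embryo and, chosen after seeing the data, leaving out female SCNT-BL replicates 5 and 6. Every member is named; of the lists, any gene past the threshold could be named. The members and lists were chosen with earlier results of these data known. Relative depth was read from the most frequent ratio of values under 1 FPKM to those of male IVF-BL replicate 1. ARS-UCD2.0 (RefSeq) served for gene overlaps only. Sequences were not used here.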

Additional observations from a re-analysis of the deposited data

Results flagged for a closer look

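In 10 of the 59 pairs of a member and a blastocyst group that had any value above 0, the highest embryo stood apart from the others of its group by Dixon's test at the 95% level, which flags about 1 in 20 groups of normal values by chance. FPKM are skewed and SOD2 is mostly listed at 0, so the count cannot be read against that rate. In male sham NT-BLs these were SOD1 in replicate 2 (1887 FPKM, next 571), GPX4 in replicate 2 (9.05, next 2.31) and PRDX1 in replicate 1 (1654, next 544). In female sham NT-BLs they were SOD2 in replicate 5 (6.24 FPKM, next 1.12) and GPX4 in replicate 2 (26.7, next 5.32). In female SCNT-BLs they were PRDX1 (2215 FPKM, next 1499.8) and PRDX2 (347, next 188) in replicate 5 and GSR in replicate 6 (145, next 47.9), which are the 2 libraries of lowest relative depth in that group (0.371 and 0.511). In IVF-BLs they were CAT in male replicate 4 (123 FPKM, next 86.4) and SOD2 in female replicate 4 (5.43, next 0.862).

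The difference in CAT between sham NT-BLs and IVF-BLs was not the same in the sets: the sets differed by -1.62 on the log2 scale for the female minus the male difference (SE 0.32, adjusted p = 0.00795). All 5 female sham NT-BLs were below every female IVF-BL, while 3 of 6 male sham NT-BLs were below every male IVF-BL.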

How the results depend on the processing

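None of the 17 member differences that passed changed direction under any alternative, while 12 of the 63 that did not pass crossed 0. Over the members and comparisons, leaving out 1 embryo kept 1120 values on the same side of the threshold and moved 37 out and 13 in, and the other alternatives kept 616 and moved 8 out and 13 in. Counts of members called, against 2, 0, 5 and 3 for SCNT-BLs and sham NT-BLs against IVF-BLs (male, then female, of each), ranged without 1 embryo over 0 to 2, 0 to 0, 4 to 5 and 2 to 4. For SCNT-BLs against sham NT-BLs they ranged over 3 to 5 (male, 5 with all embryos) and 1 to 2 (female, 1), and for the difference between sets over 0 to 0 (SCNT, 0) and 1 to 3 (sham, 1). Rows called ranged over 709 to 970 and 1 to 57 for SCNT-BLs against IVF-BLs, 1411 to 1952 and 1525 to 2072 for sham NT-BLs against IVF-BLs, 1382 to 1778 and 1176 to 1725 for SCNT-BLs against sham NT-BLs, and 147 to 311 (SCNT) and 110 to 238 (sham) for the difference between sets.

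In male SCNT-BLs against IVF-BLs the members called were 1 without the filter and 0 with all groups in a common fit. In the female set they were 1 with a common fit and 1 with array weights, and the 49 rows called became 75 above 1 FPKM, 1 with no filter, 32 after rescaling to a common sum, 136 in a common fit and 123 with array weights. In female sham NT-BLs against IVF-BLs 5 members passed after rescaling. In SCNT-BLs against sham NT-BLs of the female set 2 passed above 1 FPKM, 2 after rescaling, 2 in a common fit and 2 with array weights, CAT being added. For the sham difference between sets 2 passed above 1 FPKM, 2 in a common fit and 2 with array weights, GPX1 being added, and rows called were 300 with weights, against 187.

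Embryos that share a replicate number did not deviate together (r of -0.214 to 0.0688), so the numbers do not pair them. With replicate number as a block, SCNT-BLs against IVF-BLs gave 1 member and 652 rows in the male set and 20 rows in the female set, female sham NT-BLs against IVF-BLs 1306 rows, and SCNT-BLs against sham NT-BLs of the female set 1060 rows. The member calls lost were GPX4 in male SCNT-BLs against IVF-BLs (adjusted p = 0.0977) and GSR in male SCNT-BLs against sham NT-BLs (0.0702). Without female SCNT-BL replicates 5 and 6 the SCNT difference between sets passed in 181 rows, against 295.

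Read depth behind each FPKM is unknown, so no counting error can be given, and values near 0 FPKM, as for SOD2, limit what can be said of low members.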
